A study of Mus musculus with 2 samples.

Results

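The CD4 T cells of 2 subcutaneous mouse tumour libraries were described, with cells that held Foxp3 UMIs kept apart from cells that held none. A cell belonged to the set if its barcode carried an assembled T cell receptor beta chain (TRB), no UMI of the epithelial keratin gene Krt20, and either more Cd4 UMIs than Cd8a and Cd8b1 UMIs together, or at least 1 Foxp3 UMI with no Cd8a or Cd8b1 UMI. A UMI (unique molecular identifier) marks 1 captured RNA molecule. The rule found 110 cells among 485 barcodes with a TRB chain and 16465 barcodes in all. Because the cells were chosen by their Cd4, Foxp3, Cd8a, Cd8b1 and Krt20 UMIs, the values of those genes are given as a description only.

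The series compared mice fed a control diet with mice fed the -SG diet, which lacks serine and glycine, and each diet is represented by 1 library from the 10x Genomics platform. The number, strain, sex and age of the mice, the tumour line and the time on diet are not given in the sources used here, and pooled animals cannot be told apart from 1 animal. The extraction text speaks of human heart tissue, which does not match the rest of the labels (mouse, tumour) or the mouse gene symbols of the matrices. With 1 library per diet there was no test of diet: intervals are exact 95% intervals, they cover counting error only, and animal, tumour, library and diet cannot be told apart.

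CD4 T cells recognise peptides on MHC class II molecules and direct other immune cells, in part through CD40 ligand and secreted cytokines. Regulatory T cells are the CD4 cells that run on the transcription factor Foxp3. They restrain other T cells, use the inhibitory receptor Ctla4 and the high-affinity interleukin-2 receptor, and often gather in tumours, where they carry high levels of costimulatory receptors of the tumour necrosis factor receptor family.

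The control library held 65 CD4 cells among 242 TRB barcodes (26.9%, Clopper-Pearson 95% interval 21.4 to 32.9). The SG-free library held 45 among 243 (18.5%, 13.8 to 24.0). Foxp3-positive cells numbered 24 in the control and 26 in the SG-free library, which is 9.92% and 10.7% of TRB barcodes. Foxp3-negative CD4 cells numbered 41 and 19, or 16.9% and 7.82% of TRB barcodes. The Foxp3-positive counts were thus nearly alike in both libraries, and the difference in the CD4 share lay in the Foxp3-negative cells. Foxp3-positive cells made up 36.9% (25.3 to 49.8) of the control CD4 cells and 57.8% (42.2 to 72.3) of the SG-free ones, and these intervals overlap. The other TRB barcodes comprised 66 control and 143 SG-free barcodes called CD8, and 111 and 55 that neither rule took.

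A low count of the deciding genes set the margin of the rule. Of the Foxp3-positive cells 12 of 24 in the control and 8 of 26 in the SG-free library held exactly 1 Foxp3 UMI, and of the Foxp3-negative cells 27 of 41 and 12 of 19 held exactly 1 Cd4 UMI. In each library 15 cells entered through Foxp3 alone, with no Cd4 UMI. Just outside the rule, 93 control and 26 SG-free TRB barcodes held no UMI of Cd4, Cd8a, Cd8b1, Foxp3 or Krt20, and 7 control and 2 SG-free barcodes met a clause but held Krt20. When every TRB barcode was thinned to 1000 UMIs, which left out 13 control and 6 SG-free barcodes, the CD4 share was 16.2% and 11.0% and the Foxp3-positive share of the CD4 cells was 43.2% and 57.7%. The order of the libraries was the same at both depths for both shares.

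The cells were checked against genes that the rule did not use, and Cd8a, Cd8b1 and Foxp3 are given beside them as a description. Cd3e, a chain of the receptor complex, had UMIs in 91.7% and 96.2% of the Foxp3-positive cells of the control and SG-free library. In the Foxp3-negative cells these shares were 90.2% and 94.7%. The Krt20-positive and C1q-positive cells set beside them were chosen to hold no receptor chain and no Cd3d, Cd3e or Cd3g UMI. The Krt20-positive ones were also chosen to hold no Ptprc UMI. Absence of Cd3e from these 2 classes was thus fixed by the choice and is no check. Every CD4 cell held UMIs of a list of T cell genes. Because the rule required an assembled TRB chain, receptor genes among the T cell markers are no separate check. A Cd8a or Cd8b1 UMI was found in none of the 65 control and in 1 SG-free CD4 cell, which had more Cd4 UMIs. Foxp3 itself was found in 1.24% of 4106 control and 1.57% of 4592 SG-free Krt20-positive cells, which were far deeper (medians of 25079 and 23131 UMIs), and in 0.870% and 0.784% of the 690 and 638 C1q-positive cells (medians of 9683.5 and 10503 UMIs). Among the CD8 cells 1 of 66 and 0 of 143 held Foxp3. No member carried the paired V and J genes of invariant NKT or MAIT cells. The libraries shared 104 barcodes, of which none was a CD4 cell in both and 1 control CD4 cell's barcode also occurred in the SG-free library.

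The cells were shallow. The median CD4 cell held 2371 UMIs in the control library (836 to 45271) and 2693 in the SG-free library (590 to 16720), against 3602.5 and 6656 in the CD8 cells and 17540 and 16770 over all barcodes of libraries that held 161332426 and 157234945 UMIs. A few deep CD4 barcodes also held the genes of the Krt20-positive cells. In 7 control cells (2 Foxp3-positive, 5 Foxp3-negative) and 2 SG-free cells (1 of each), the 30 leading genes of Krt20-positive cells took over 1% of UMIs, with 1.29% to 3.15% in the control and 2.36% to 5.04% in the SG-free library. The medians of the Krt20-positive cells themselves were 2.89% and 3.28%, and the highest value in any other CD4 cell was 0.760% in the control and 0.356% in the SG-free library. T cell list genes took 0.0134% to 0.489% of UMIs in the 7 control carriers, and 0.377% to 2.02% in the other control Foxp3-negative cells. These 9 cells held 56.0% of all control CD4 UMIs and 14.8% of all SG-free ones, so levels and ratios are given without them unless stated. They were set apart after the data were seen, and the main counts of genes and medians of lists are also given with them. Whether they are doublets was not tested.

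**Figure D1:**
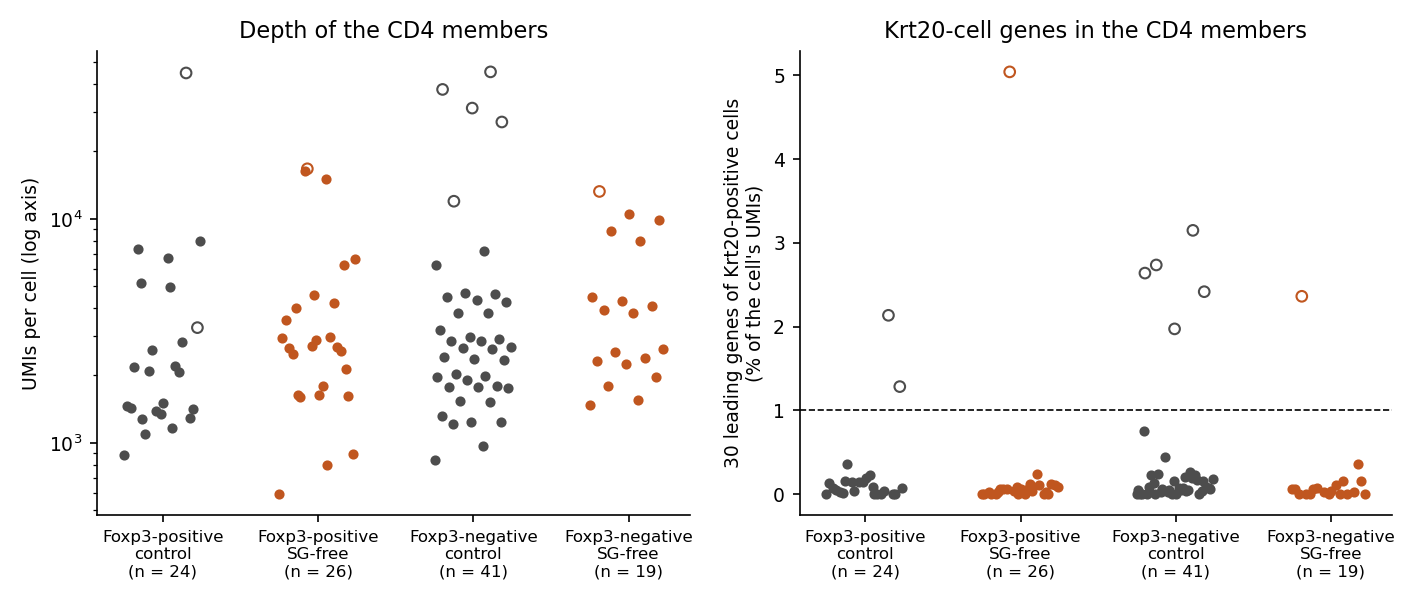
UMIs per CD4 cell on a log axis (left) and the percent of each cell's UMIs from the 30 leading genes of Krt20-positive cells (right), by Foxp3 class and library. Each point is 1 cell, open points are the 9 carriers above the dashed line at 1%, and the deepest control cells are all among them.

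Without the carriers, 22 control and 25 SG-free Foxp3-positive cells remained (medians of 1788 and 2666 UMIs) with 36 and 18 Foxp3-negative cells (medians of 2399 and 3218 UMIs). Levels are given as CPM, the UMIs of a gene per 1000000 UMIs summed over the cells of a class and library, for these cells unless all cells are named.

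Foxp3-positive cells carried the regulatory programme in both libraries, through genes that had no part in choosing them. Ikzf2, which encodes the transcription factor Helios, stood at 1097 CPM in control and 1042 CPM in SG-free Foxp3-positive cells and at 30.7 and 65.3 CPM in Foxp3-negative cells, a ratio of 35.7 (11.7 to 178) and 16.0 (6.61 to 50.2). Il2ra, the alpha chain of the interleukin-2 receptor, stood at 731 and 684 CPM against 113 and 105 CPM, a ratio of 6.50 (3.30 to 13.9) and 6.55 (3.13 to 15.8). Ctla4 stood at 1762 and 1842 CPM against 511 and 535 CPM, a ratio of 3.45 (2.44 to 4.92) and 3.44 (2.44 to 4.96). For these 3 genes the Poisson intervals of the Foxp3-positive and Foxp3-negative levels did not overlap in either library.

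Counted over all genes with at least 20 UMIs in both sums together, 10.2% of 1271 genes in the control and 10.3% of 1428 genes in the SG-free library differed by a fold of 2 or more between the Foxp3 classes, on log2(CPM + 50). With the carriers kept, the shares were 5.63% of 2680 and 10.5% of 1671 genes. Without the carriers, 703 of the 1271 and 770 of the 1428 genes were higher in Foxp3-positive cells. Of a list of 15 core regulatory T cell genes (Foxp3 left out), 7 reached the UMI minimum in each library, all 7 were higher in Foxp3-positive cells, and 4 and 5 of them passed the fold of 2. Their median log2 ratio was 1.54 in the control and 1.69 in the SG-free library, beside 0.083 and 0.050 over all genes, and it was 1.16 and 1.64 with the carriers kept. A gene such as Ikzf2 reached the minimum mainly through the class where it is high, so these counts describe the measured genes and are no test of the list.

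The costimulatory receptors that activated regulatory T cells carry were also higher. Tnfrsf9 stood at 3540 and 1895 CPM in Foxp3-positive cells and 511 and 627 CPM in Foxp3-negative cells. Tnfrsf4 (OX40) stood at 2692 and 1495 CPM against 747 and 614 CPM, and Tnfrsf18 (GITR) at 1579 and 1295 CPM against 890 and 758 CPM. The inducible costimulator Icos stood at 1014 and 937 CPM against 450 and 183 CPM. All 4 receptors were thus present in Foxp3-negative CD4 cells too, with ratios of Foxp3-positive to Foxp3-negative cells between 1.71 (Tnfrsf18, SG-free) and 6.92 (Tnfrsf9, control).

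Among inhibitory receptors, Tigit stood at 548 and 547 CPM in Foxp3-positive cells and 153 and 131 CPM in Foxp3-negative cells. Lag3 stood at 216 and 316 CPM against 133 and 196 CPM, and Pdcd1, which encodes PD-1, at 83.1 and 116 CPM against 256 and 144 CPM. Pdcd1 was therefore the receptor of this group with the lower level in Foxp3-positive cells in both libraries, on few UMIs. The integrin gene Itgae, which marks tissue-lodged lymphocytes, was found at 66.5 and 263 CPM in Foxp3-positive cells against 0 and 13.1 CPM in Foxp3-negative cells. The control level of Itgae in Foxp3-positive cells, from 4 UMIs, was 2.17 times what 3 UMIs would give in the control Foxp3-negative sum. The counting error of those 4 UMIs is not included, so this fold is no lower bound.

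Of a list of 23 effector regulatory T cell genes, 11 were measured in the control and 13 in the SG-free library, every measured one was higher in Foxp3-positive cells, and 7 and 8 passed the fold of 2 (median log2 ratios of 1.34 and 1.22). With the carriers kept, 12 of 13 and 14 of 14 were higher. As for the core list, a gene could reach the UMI minimum mainly through the class where it was high. The counts therefore describe the measured genes and are no test of the list. Over all genes without the carriers 703 of 1271 and 770 of 1428 were higher. Granzyme B (Gzmb), a protease of cytotoxic granules, had the highest log2 ratio of the list in the control library: 3855 CPM in Foxp3-positive and 164 CPM in Foxp3-negative cells, a ratio of 23.6 (14.2 to 41.9). In the SG-free library Gzmb stood at 1190 and 405 CPM, a ratio of 2.94 (1.96 to 4.53). In the control library 94 of its 232 Foxp3-positive UMIs came from 1 cell. The inhibitory cytokine Il10 was found in 5 control and 8 SG-free Foxp3-positive cells (199 and 137 CPM); in the control Foxp3-negative cells all 17 Il10 UMIs came from 1 cell.

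The 10 genes with the largest difference in the same direction in both libraries, ranked by the ratio nearer 0, were Ikzf2, Il2ra, Ly6a, Glrx, Ctla4, Tigit, Tnfrsf9, Lamc1, Gzmb and Klrg1 on the higher side. Ly6a, a surface antigen of activated T cells, stood at 2376 and 3305 CPM against 471 and 601 CPM. Glrx, a redox enzyme (glutaredoxin), stood at 698 and 411 CPM against 143 and 65.3 CPM. On the lower side were Ly6c2, Ms4a4b, Btg2, Ifitm3, Emb, Slfn2, Lgals3, Tnf, Ifitm2 and Mir142hg. Ly6c2, a surface antigen of memory and effector T cells, stood at 66.5 and 94.7 CPM in Foxp3-positive cells against 675 and 640 CPM in Foxp3-negative cells. Btg2, which restrains proliferation, stood at 266 and 253 CPM against 777 and 875 CPM.

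**Figure D2:**
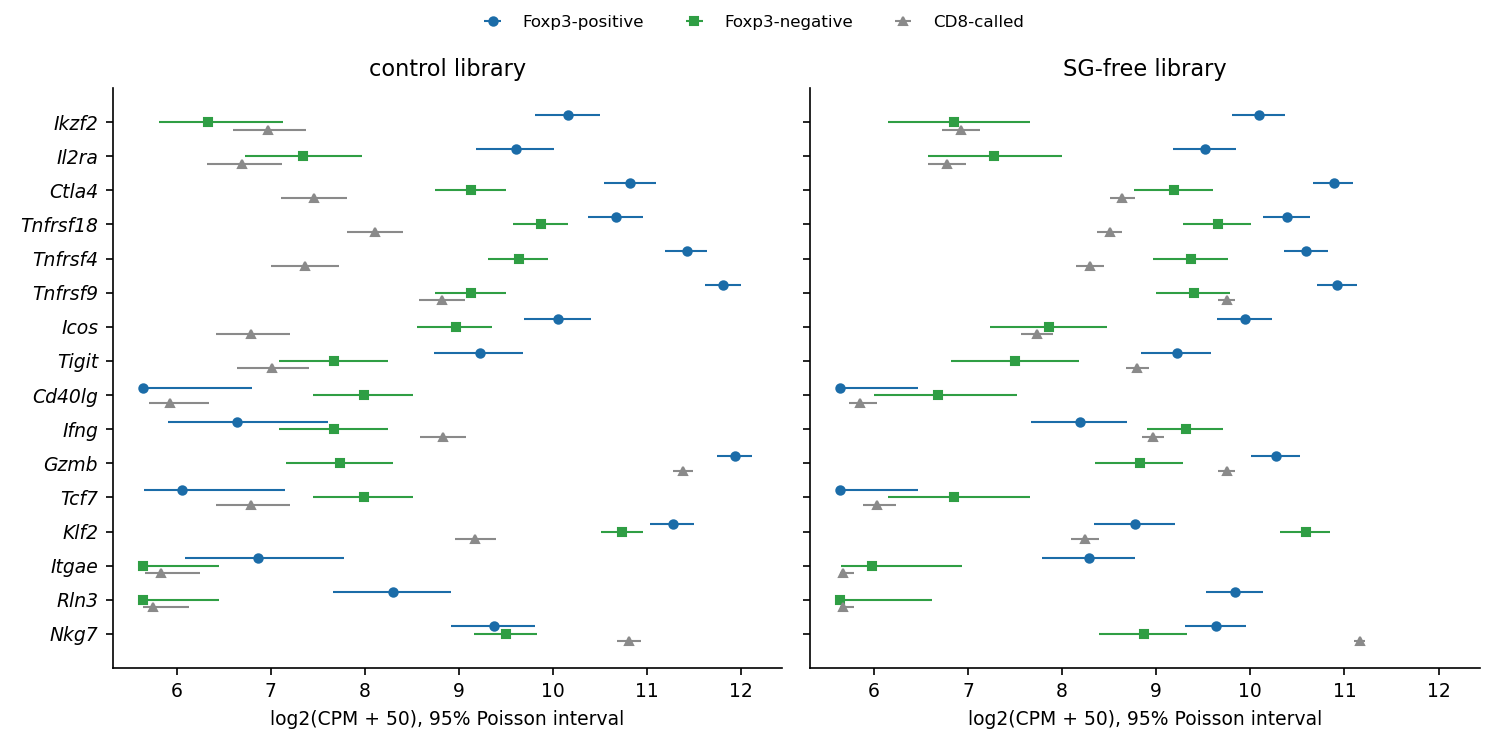
Level of 16 genes in Foxp3-positive, Foxp3-negative and CD8 cells of each library, as log2(CPM + 50) of UMIs summed without the 9 carriers, with exact 95% Poisson intervals that cover counting error only. Ikzf2, Il2ra and Ctla4 lie to the right in Foxp3-positive cells of both libraries, whereas Cd40lg has no UMI there.

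The core list also separated the classes cell by cell. In Foxp3-positive cells it took a median of 0.764% of UMIs in the control (0.412% to 1.46%) and 0.839% in the SG-free library (0.169% to 1.63%). In Foxp3-negative cells the medians were 0.186% (0% to 1.06%) and 0.186% (0% to 0.865%), so the ranges overlap and a few Foxp3-negative cells lay above the Foxp3-positive median. The effector list took medians of 1.14% and 1.37% in Foxp3-positive and 0.181% and 0.235% in Foxp3-negative cells. Ikzf2 or Il2ra was found in 19 of 22 control and 23 of 25 SG-free Foxp3-positive cells, and in 10 of 36 and 6 of 18 Foxp3-negative cells, where both genes together were found in 1 cell of each library.

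**Figure D3:**
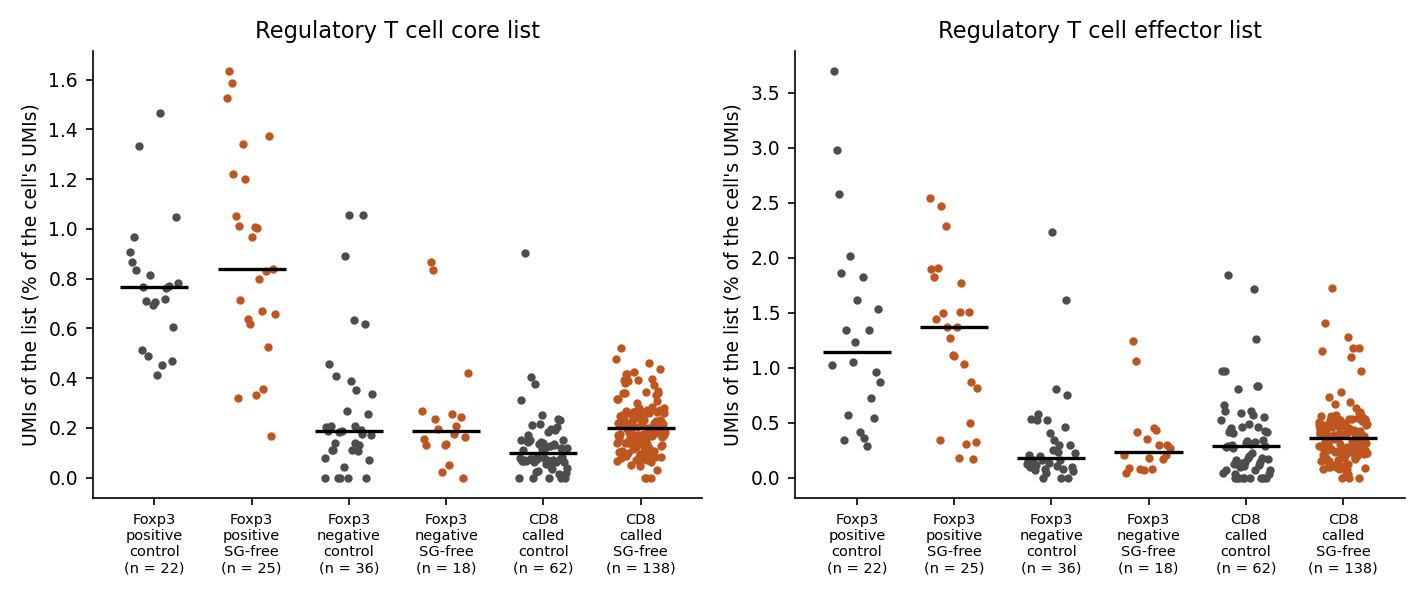
Percent of each cell's UMIs from the core list (left, Foxp3 left out) and the effector list (right) in cells without the carriers, 1 point per cell, with the median as a bar. The core medians are 0.764% and 0.839% in Foxp3-positive and 0.186% in Foxp3-negative cells of both libraries.

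The Foxp3-positive cells at the margin of the rule were set beside the rest in these genes. Cells with no Cd4 UMI (14 in each library) had 970 and 1160 CPM of Ikzf2 and 1490 and 1711 CPM of Ctla4. Cells with Cd4 (8 and 11) had 1213 and 906 CPM of Ikzf2 and 2012 and 1993 CPM of Ctla4. Cells with exactly 1 Foxp3 UMI (10 and 8) had 1330 and 872 CPM of Ikzf2, and those with more (12 and 17) had 925 and 1129 CPM. Ctla4 stood at 1565 and 2367 CPM in cells with exactly 1 Foxp3 UMI and at 1907 and 1574 CPM in those with more. The direction of each Ikzf2 difference, and of this Ctla4 difference, was opposite in the control and SG-free library. In the SG-free library Tnfrsf18 stood at 748 CPM in cells with 1 Foxp3 UMI and 1574 CPM in those with more. There Il2ra was found in 4 of 8 and 14 of 17 of these cells, and in 13 of 14 cells with no Cd4 UMI against 5 of 11 with Cd4. In the control library Il2ra was found in 5 of 10 cells with 1 Foxp3 UMI and 9 of 12 with more. By Cd4 the control order was opposite, with 8 of 14 cells with no Cd4 UMI against 6 of 8 with Cd4.

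Foxp3-negative CD4 cells held the helper gene Cd40lg, the ligand through which CD4 cells activate B cells and dendritic cells. It was found in 17 of 41 control and 4 of 19 SG-free Foxp3-negative cells, in none of the 24 and 26 Foxp3-positive cells, and in 3 of 66 and 5 of 143 of the deeper CD8 cells. The Krt20-positive and C1q-positive cells, which were chosen to hold no receptor chain and no Cd3 UMI, held no Cd40lg. Thinned to 1000 UMIs, 8 of 39 control and 2 of 19 SG-free Foxp3-negative cells kept a UMI. Without the carriers its level in Foxp3-negative cells was 205 and 52.2 CPM, from 20 and 4 UMIs. These levels are 4.10 and 1.65 times the level that 3 UMIs would give in each library's Foxp3-positive sum. The counting error of the 20 and 4 UMIs is not included, so these folds are no lower bounds.

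Of 12 Th1 genes, 7 were measured in each library and 2 of 7 were higher in Foxp3-positive cells, with medians of -1.10 and -0.91. Over all genes 703 of 1271 in the control and 770 of 1428 in the SG-free library were higher. The limit set by the UMI minimum holds for this list too. The chemokine receptor Cxcr6 stood at 16.6 and 52.6 CPM in Foxp3-positive cells against 430 and 222 CPM in Foxp3-negative cells. The cytokine Tnf stood at 183 and 158 CPM against 450 and 340 CPM, and Ifng at 49.9 and 242 CPM against 153 and 588 CPM. Il2 was not found in Foxp3-positive cells and came from 1 Foxp3-negative cell in each library. Tbx21, the Th1 transcription factor, was found in 3 to 6 cells of each class and library, and Gata3, its Th2 counterpart, in 4 to 7. UMIs of the Th17 gene Il17a came from 1 SG-free Foxp3-positive cell, which held 3.

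Genes of resting or recirculating T cells were unevenly spread. Tcf7, a transcription factor of naive and memory T cells, stood at 205 and 65.3 CPM in Foxp3-negative cells and 16.6 and 0 CPM in Foxp3-positive cells. Il7r, the interleukin-7 receptor, stood at 470 and 196 CPM in Foxp3-negative and 216 and 390 CPM in Foxp3-positive cells, so its order differed between the libraries. Klf2, a transcription factor of quiescence and lymphocyte egress, stood at 1657 and 1489 CPM in Foxp3-negative cells and at 2426 and 390 CPM in Foxp3-positive cells. The exit receptor S1pr1 had 10 and 7 UMIs in Foxp3-negative cells and 1 UMI in each Foxp3-positive sum.

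Beside the CD8 cells of the same tumours, the CD4 cells were low in cytotoxic genes. Between Foxp3-negative and CD8 cells 6.68% of 2903 genes in the control and 3.76% of 5978 genes in the SG-free library passed the fold of 2, and between Foxp3-positive and CD8 cells 11.2% of 2631 and 5.12% of 6060. Of 15 cytotoxic genes, 0 of 10 measured in the control and 1 of 11 in the SG-free library were higher in Foxp3-negative cells (medians of -1.33 and -1.02), and 1 of 10 and 1 of 11 in Foxp3-positive cells (medians of -2.15 and -1.74). The CD8 sums were larger (SG-free: 1028841 UMIs against 76812 and 95254), so genes could reach the minimum mainly through CD8 cells. Counts of any list set against the CD8 cells therefore describe the measured genes only. Over all genes 1316 of 2903 and 2844 of 5978 were higher in Foxp3-negative than in CD8 cells. For Foxp3-positive over CD8 cells 1317 of 2631 and 3183 of 6060 were higher. With no minimum, the whole cytotoxic list stood at 7448 and 5553 CPM in CD8 cells. It stood at 1570 and 1771 CPM in Foxp3-negative and 4508 and 2016 CPM in Foxp3-positive cells. The granule gene Nkg7 stood at 1740 and 2241 CPM in CD8 cells, 675 and 418 CPM in Foxp3-negative and 615 and 747 CPM in Foxp3-positive cells. Gzmb was the exception in the control library, with 2624 CPM in CD8 and 3855 CPM in Foxp3-positive cells.

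The 10 genes highest in Foxp3-negative over CD8 cells in both libraries were Hspa1b, Klf2, Sdf4, Txnip, Emb, Pim1, Tnfrsf18, Ifi27l2a, Tnfsf8 and Cd2. Those lowest were Ccl5, Klrc1, Xcl1, Spp1, Nkg7, Rps27l, Ifitm1, Zyx, Atp8b4 and Ctsc. For Foxp3-positive over CD8 cells the highest were Ikzf2, Penk, Il2ra, Arl5a, Tnfrsf4, Ctla4, Icos, Pim1, Ass1 and Ifi27l2a, and the lowest Ifitm1, Klrc1, Ctsw, Klrk1, Klrd1, Xcl1, Spp1, Fcer1g, Ly6c2 and Cxcr6. The killer lectin receptor Klrc1 stood at 608 and 692 CPM in CD8 cells, 133 and 183 CPM in Foxp3-negative cells and 0 and 10.5 CPM in Foxp3-positive cells. The chemokine Xcl1 stood at 489 and 347 CPM in CD8 cells and at 78.4 CPM or less in both CD4 classes.

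Type I interferon genes were placed differently in the libraries. In the SG-free library 8 of 11 measured genes were higher in Foxp3-negative than in CD8 cells and 8 of 9 higher in Foxp3-positive than in CD8 cells, with medians of 1.01 and 1.08. In the control library these medians were 0.099 and 0.092. Isg15, an interferon-induced ubiquitin-like protein, stood at 1163 and 1211 CPM in Foxp3-positive, 890 and 1306 CPM in Foxp3-negative and 892 and 383 CPM in CD8 cells. Its CD4 levels were thus similar or higher in the SG-free library while its CD8 level was lower. The interaction of diet and class was not tested.

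The diet comparison asks how the CD4 cells of the SG-free tumour library differed from those of the control library. In Foxp3-positive cells without the carriers 5.11% of 1351 genes (69 genes) passed the fold of 2 between the SG-free and control library, with a median log2 ratio of 0.015 over all genes. With the carriers kept it was 8.95% of 1787 genes (160 genes), and the leading genes were those of connective tissue and epithelium: Bgn stood at 761 CPM in the SG-free and 9.24 CPM in the control sum, Dcn at 1933 and 213 CPM, and Tm4sf1 at 0 and 518 CPM. The 1 SG-free and 2 control carriers held these genes, so the values below leave them out.

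The identity genes of the Foxp3-positive cells lay close together in both diets. The SG-free to control ratio was 0.950 (0.689 to 1.32) for Ikzf2, 0.936 (0.629 to 1.40) for Il2ra, 1.05 (0.817 to 1.34) for Ctla4, 0.924 (0.660 to 1.30) for Icos and 0.998 (0.633 to 1.59) for Tigit. Each of these intervals holds a ratio of 1, and each also allows a difference of over 1.3-fold. Of the 9 measured core genes 3 were higher in the SG-free library and none passed the fold of 2 (median -0.089). With the carriers kept 8 of 9 were higher (median 0.44), and the 2 control carriers held 44.3% of that class's UMIs. Of 14 measured effector genes 5 were higher (median -0.23), with Itgae and Ccr8 past the fold of 2 upward and Gzmb downward. Over all 1351 measured genes without the carriers 688 were higher. Per cell the effector list went the other way from its sums. The median cell held 1.14% of its UMIs in the list in the control and 1.37% in the SG-free library. The summed list stood at 14453 and 8955 CPM.

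Klf2 had the lowest ratio of any named gene in Foxp3-positive cells, with 146 UMIs in the control and 37 in the SG-free library (2426 and 390 CPM). The ratio was 0.161 (0.109 to 0.232), 0.184 without the control cell with the highest count (21 of the 146 UMIs), and 0.289 (0.205 to 0.401) with all carriers kept. In Foxp3-negative cells the Klf2 ratio was 0.899 (0.701 to 1.15). Other genes low in SG-free Foxp3-positive cells were Gzmb, Dnajc9, Adgre5, Sdhb, Actg1, Fos, Gadd45g, Stmn1 and Plp2. Without the cell with the highest count, Gadd45g went from 0.375 to 0.651 (0.302 to 1.41), Stmn1 from 0.367 to 0.612 (0.236 to 1.61) and Plp2 from 0.396 to 0.489 (0.231 to 1.02), and each of these intervals holds 1. Fos, an immediate early gene of receptor signalling and of tissue dissociation, stood at 3623 and 1547 CPM, a ratio of 0.427 (0.344 to 0.529). The share of these differences that comes from handling of each tumour was not tested.

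Gzmb in Foxp3-positive cells stood at 3855 CPM in the control and 1190 CPM in the SG-free library, a ratio of 0.309 (0.244 to 0.388), and 0.474 (0.367 to 0.613) without the control cell with 94 UMIs. Tnfrsf9 had a ratio of 0.535 (0.437 to 0.656) and Tnfrsf4 a ratio of 0.555 (0.440 to 0.700). Without the control cell with the highest count (42 of 213 and 25 of 162 UMIs), these were 0.643 (0.518 to 0.797) and 0.633 (0.497 to 0.806). All 3 genes are known to be induced by T cell activation, but whether activation differed between the libraries was not tested. Of 10 measured genes of receptor signalling 3 were higher in the SG-free library, with a median of -0.47. Over all 1351 measured genes 688 were higher, with a median of 0.015.

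On the higher side in SG-free Foxp3-positive cells were Rln3, Cct4, Cd28, Odc1, Gstp3, Ccrl2, Prrc2c, Txnip, Ccr8 and Mier1. Without the cell with the highest count, the ratio was 2.71 (0.988 to 9.25) for Gstp3, 2.60 (0.922 to 9.02) for Ccrl2 and 2.26 (0.880 to 6.83) for Mier1, and each of these intervals holds 1. The costimulatory receptor Cd28 stood at 83.1 and 326 CPM, a ratio of 3.93 (1.51 to 12.9). The chemokine receptor Ccr8, known from tumour regulatory T cells, stood at 116 and 326 CPM, a ratio of 2.81 (1.21 to 7.55). Itgae, which fell short of the UMI minimum for named genes, had 4 UMIs in the control and 25 in the SG-free library, a ratio of 3.96 (1.37 to 15.7). Satb1, a chromatin organiser, had 2 and 25 UMIs (33.2 and 263 CPM). Satb1 and Itgae were singled out after their values were seen, and no gene of this paragraph had more than 82 UMIs in a sum.

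Rln3, which encodes the peptide hormone relaxin-3, known mainly from the brain, was found nearly only in Foxp3-positive cells. All cells counted, 10 of 24 control and 11 of 26 SG-free Foxp3-positive cells held it, against none of the 41 and 19 Foxp3-negative cells and 1 of 66 and 1 of 143 CD8 cells. The Krt20-positive and C1q-positive cells, which were chosen to hold no receptor chain and no Cd3 UMI, held no Rln3. Without the carriers it had 16 and 82 UMIs (266 and 863 CPM), a ratio by diet of 3.25 (1.89 to 5.94), and 2.46 (1.39 to 4.58) without the SG-free cell with 24 UMIs. Its levels were 8.67 and 22 times what 3 UMIs would give in the Foxp3-negative sums of the control and SG-free library. The counting error of the Rln3 UMIs is not included in these folds. Penk, the precursor of the enkephalin opioid peptides, was found in 4 control and 7 SG-free Foxp3-positive cells and in 2 and 5 Foxp3-negative cells. Its level in Foxp3-positive cells was 1014 and 1747 CPM, and 39 of the 61 control UMIs lay in 1 cell.

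In Foxp3-negative cells 6.08% of 1382 genes (84 genes) passed the fold of 2 by diet without the carriers, and 12.1% of 2583 genes (312 genes) with them, when Sparc, Col1a2 and Timp1 were among the leading genes. Only 18 SG-free cells entered the first count, and individual cells carried many of its leading genes. The haemoglobin gene Hbb-bs had 1110 of its 1112 UMIs in 1 control cell, and Ccl3 had 61 of 61. The MHC class II genes Cd74 and H2-Ab1 had 36 of 36 and 47 of 49 UMIs in 1 SG-free cell. Penk stood at 20.5 and 1567 CPM, with 72 of 120 SG-free UMIs in 1 cell, and Ccl4 turned from a ratio of 0.270 to 5.92 without 1 control cell.

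Without the carriers, several helper genes had lower summed values in the SG-free Foxp3-negative cells. Cd40lg had 20 UMIs in the control and 4 in the SG-free library, a ratio of 0.255 (0.0635 to 0.762), Icos a ratio of 0.406 (0.206 to 0.755), Il7r of 0.416 (0.216 to 0.759) and Tcf7 of 0.319 (0.0936 to 0.877). Without the cell with the highest count the Tcf7 ratio was 0.436 (0.123 to 1.28). Over all 1382 measured genes 740 were higher in the SG-free library (median 0.044). Of 8 measured helper effector genes 2 were higher in the SG-free library (median -0.73), and of 8 naive and memory genes 1 was (median -0.41), Ccr7 with 5 and 24 UMIs. Of those 24 UMIs 13 lay in 1 cell, and without it the Ccr7 ratio went from 6.13 (2.29 to 20.6) to 3.23 (1.03 to 11.8). The lists differed less per cell than in the sums: the median cell held 0.199% of its UMIs in helper effector genes in the control and 0.187% in the SG-free library, and 0.441% and 0.498% in naive and memory genes. The log2 medians of the sums were 0.11 and 0.33 with the carriers kept, when the ratio was 0.466 (0.117 to 1.36) for Cd40lg, 0.767 (0.392 to 1.41) for Icos and 0.950 (0.514 to 1.68) for Il7r. Each of these 3 intervals holds a ratio of 1, unlike those without the carriers, and the 5 control carriers held 61.0% of that class's UMIs.

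Ifng, the defining Th1 cytokine, stood at 153 CPM in control and 588 CPM in SG-free Foxp3-negative cells, a ratio of 3.83 (2.10 to 7.40), and 3.42 without its top cell. In the same sums the natural killer genes stood at 40.8 and 508 CPM, and genes of gamma-delta, natural killer T and innate cells at 10.2 and 312 CPM. The SG-free UMIs of each list lay in 2 of 18 cells, with up to 0.475% and 0.287% of a cell's UMIs, and their part in the result was not tested. Ifitm3, an interferon-induced membrane protein, stood at 378 and 1032 CPM, a ratio of 2.73 (1.82 to 4.14). Ecm1, a secreted matrix protein, had 58 UMIs in the control and 1 in the SG-free library, a ratio of 0.0220 (0.000548 to 0.128). Other genes of the higher side were Lgals7, Marcksl1, H2afx, Ubald2 and Top2a, and of the lower side Hbb-bt, Hba-a1, Hba-a2, Gphn, Gramd3 and Runx1. Without the cell with the highest count, the ratio went from 4.31 to 1.44 (0.472 to 4.41) for Lgals7, from 3.25 to 1.34 (0.512 to 3.49) for H2afx and from 3.19 to 0.592 (0.136 to 2.05) for Top2a. Of 6 measured proliferation genes all were higher in the SG-free library (median 1.26), beside 740 of all 1382 measured genes. In that library 1 cell held 14 of 19 Mki67 UMIs and 1 cell 21 of 25 Top2a UMIs.

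The CD8 cells gave other values under the same diets, with 1.62% of 6541 genes past the fold of 2. Over all genes 3225 of 6541 were higher in SG-free CD8 cells, 688 of 1351 in Foxp3-positive and 740 of 1382 in Foxp3-negative cells. None of the 15 measured type I interferon genes of the CD8 cells was higher in the SG-free library (median -1.02), against 4 of 7 in Foxp3-positive (0.055) and 3 of 8 in Foxp3-negative cells (-0.40). All 14 exhaustion genes were higher in SG-free CD8 cells (1.03), against 3 of 5 in Foxp3-positive (0.063) and 4 of 8 in Foxp3-negative cells (-0.056). Fewer genes of each list were measured in the CD4 cells, and the difference between the classes was not tested.

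**Figure D4:**
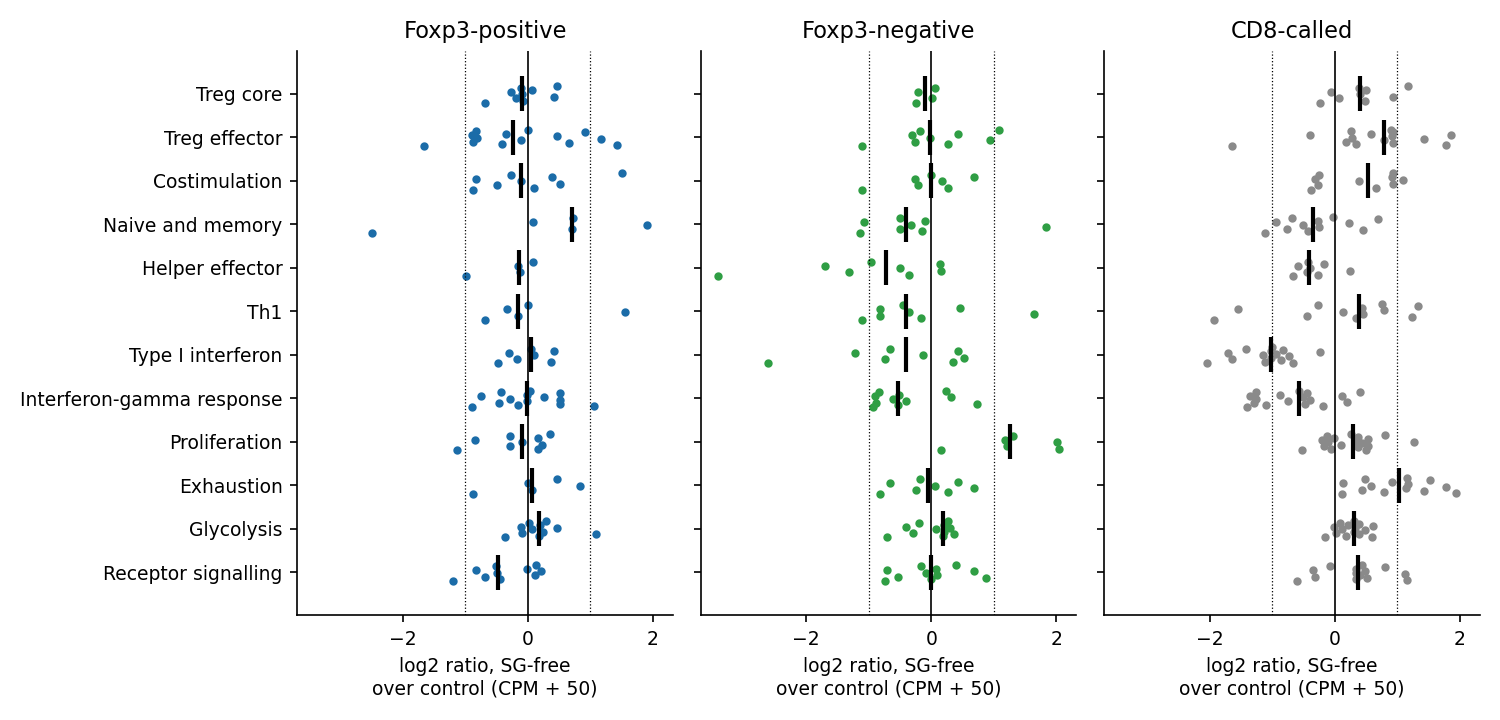
log2 ratio of CPM + 50, SG-free over control, for the measured genes of 12 lists in Foxp3-positive, Foxp3-negative and CD8 cells without carriers, 1 point per gene, with the list median as a bar and dotted lines at a fold of 2. Core list medians are -0.089, -0.11 and 0.40, and the type I interferon median is -1.02 in CD8 cells and 0.055 in Foxp3-positive cells.

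Genes of serine and glycine synthesis and folate metabolism were scarcely measured. In Foxp3-positive cells 2 of 14 reached the minimum by diet: Phgdh, the first enzyme of serine synthesis, stood at 150 CPM in the control and 232 CPM in the SG-free library, a ratio of 1.55 (0.685 to 3.82). In Foxp3-negative cells none reached it, and Phgdh had 11 and 3 UMIs. Shmt2, the mitochondrial serine hydroxymethyltransferase, had 3 and 9 UMIs in Foxp3-positive and 6 and 1 in Foxp3-negative cells.

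The receptor sequences allowed clones to be followed without regard to expression. Among cells with both chains, a clonotype (identical nucleotide sequences and V and J genes of both chains) of at least 2 barcodes held 9 of 59 control CD4 cells (15.3%, 7.22 to 27.0) and 4 of 43 SG-free ones (9.30%, 2.59 to 22.1). In the CD8 cells these shares were 23 of 64 (35.9%, 24.3 to 48.9) and 115 of 135 (85.2%, 78.1 to 90.7). The CD4 interval lay below the CD8 interval in the SG-free library and overlapped it in the control library. No CD4 clonotype held more than 2 CD4 cells, whereas the largest SG-free CD8 clonotype held 38. Foxp3-positive cells had 2 of 21 and 4 of 26 in such clonotypes, and Foxp3-negative cells 7 of 38 and 0 of 17. The exact interval of that 0 reaches 19.5%, and 3 counts of 17 would be 17.6%.

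**Figure D5:**
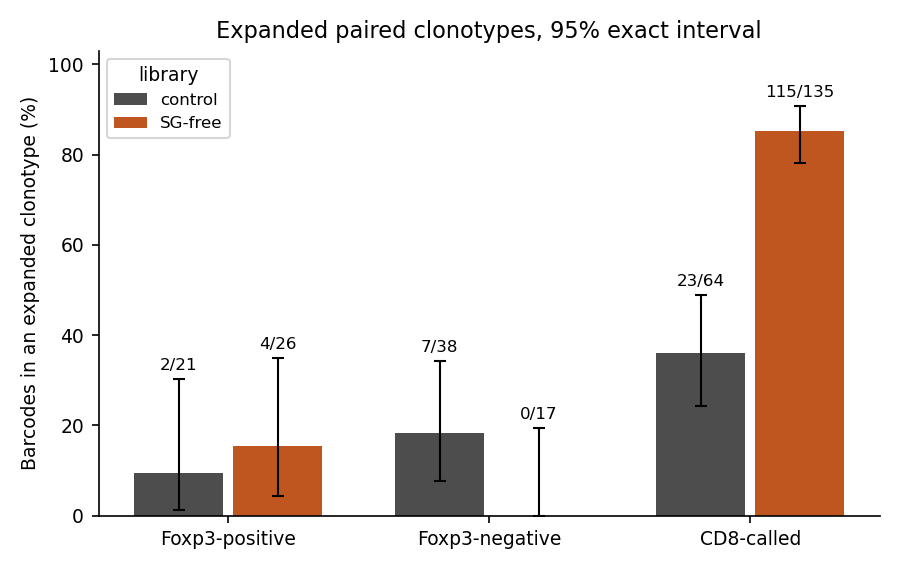
Percent of barcodes with both receptor chains that lie in a clonotype of at least 2 barcodes, by class and library, with exact 95% intervals and the counts above the bars. Every CD4 bar lies at or under 18.4%, and the SG-free CD8 bar at 85.2%.

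No expanded CD4 clone spanned the Foxp3 classes, but only clones with 2 CD4 cells could have. These were clones 2, 3, 5, 9 and 10, counted by TRB alone. Whether the classes share clones was not tested with so few. The following junction sequences (CDR3, the part of the receptor that touches the peptide) are shown because both cells of each clone fell on the same side of Foxp3: clones 5, 9 and 10 consisted of Foxp3-positive cells, although 1 cell of each held exactly 1 Foxp3 UMI, and clone 3 of Foxp3-negative cells. Sequences run 5′ to 3′ from the conserved cysteine codon, as assembled in the deposited contigs.
clone 5 TRB (control, TRBV15, TRBJ2-4): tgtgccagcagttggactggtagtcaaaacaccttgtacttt
clone 5 TRA: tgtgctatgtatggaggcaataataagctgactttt
clone 9 TRB (SG-free, TRBV13-1, TRBJ2-7): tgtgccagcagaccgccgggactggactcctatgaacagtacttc
clone 9 TRA: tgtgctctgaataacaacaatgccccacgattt
clone 10 TRB (SG-free, TRBV13-3, TRBJ2-5): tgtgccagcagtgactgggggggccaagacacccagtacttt
clone 10 TRA: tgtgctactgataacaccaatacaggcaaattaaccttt
clone 3 TRB (control, TRBV13-3, TRBJ2-4): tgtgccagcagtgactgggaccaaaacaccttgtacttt
clone 3 TRA: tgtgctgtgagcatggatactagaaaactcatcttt

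The Foxp3 UMIs of the paired cells were 1 and 5 in clone 5, 1 and 6 in clone 9, and 6 and 1 in clone 10, in cells of 7352 and 7933, 3521 and 4014, and 6253 and 16421 UMIs. No clonotype was shared between Foxp3-positive, Foxp3-negative and CD8 cells of a library, by both chains or by TRB alone, and none between the libraries. Between the Foxp3 classes only the few clones with 2 CD4 cells could have shown sharing. The control Foxp3-negative cells shared 5 of 37 paired clonotypes (13.5%) with barcodes that the rule did not call, and these made up 5.81% of that group's 86 clonotypes. In those clones the uncalled barcodes held no Cd4 UMI or a Krt20 UMI, and several were carriers.

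Clones 2 and 8 held control Foxp3-negative cells and used the same V and J genes, TRBV5 and TRBJ2-3, and are shown for that reason. They were grouped by TRB alone, and each held 2 differing sets of TRA sequences. Clone 2 held 2 Foxp3-negative cells, 1 of them a carrier, and clone 8 held 1. Each also held 1 barcode that the rule did not call. Their TRB junctions differed at 5 of 54 bases. Only pairs alike in V gene, J gene and length were compared, so the 5 of 54 is no measure of closeness.
clone 2 TRB: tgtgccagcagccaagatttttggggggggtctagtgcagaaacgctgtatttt
clone 8 TRB: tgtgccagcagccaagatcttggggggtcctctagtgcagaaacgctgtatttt

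V gene use was broad. TRBV5 was used by 10 of 65 control CD4 cells (15.4%, 7.63 to 26.5) and 7 of 45 SG-free ones (15.6%, 6.49 to 29.5), and TRBV19 by 5 (7.69%, 2.54 to 17.1) and 9 (20.0%, 9.58 to 34.6), with overlapping intervals. TRB junctions averaged 14.0 ± 1.02 residues (SD over 23 chains) in control and 13.7 ± 1.52 (24 chains) in SG-free Foxp3-positive cells, and 14.4 ± 1.67 (39 chains) and 13.7 ± 1.76 (19 chains) in Foxp3-negative cells.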

How the data were processed

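The deposited matrices give UMI counts for each gene in each barcode, made by the authors with Cell Ranger 7.1.0 per the file headers (2.2.2 and build mm10 per the submitters' processing notes); the deposited contig tables hold UMI counts per assembled chain. Contigs and matrix were linked by barcode within a sample. UMIs of a class were added up in each library and scaled to counts per 1000000 (CPM). Receptor, immunoglobulin and rule genes were left out of comparisons. Mitochondrial genes were left out of the named genes only, so the counts of genes past the fold of 2 could include them. Ratios are of CPM, with exact conditional binomial intervals; log2 ratios used CPM + 50, genes with at least 20 UMIs in both sums, and a fold of 2 as a rule of size. Named genes were the 10 highest and 10 lowest log2 ratios among genes with at least 30 UMIs and a mean of at least 100 CPM, plus 47 genes fixed by role. Members, lists and rules were chosen with earlier results of these data known; the carriers were defined after the data were seen. No doublets were removed and no caller was run. All members had 300 genes or more and no more than 20% mitochondrial UMIs. Alternatives were another pseudocount, a higher UMI minimum, cells weighted equally, thinning, stricter and looser rules, and leaving out carriers. Interval code was tested on simulated data. Python 3, numpy 2.4.6, scipy 1.17.1, pandas 2.3.3 and matplotlib 3.10.9 were used.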

Additional observations from a re-analysis of the deposited data

Results flagged for a closer look

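Granzyme B (Gzmb) moved in opposite directions by diet in the Foxp3 classes. In Foxp3-positive cells the SG-free to control ratio was 0.309 (0.244 to 0.388), from 232 UMIs in the control and 113 in the SG-free library. In Foxp3-negative cells it was 2.47 (1.31 to 4.84), from 16 and 31 UMIs. With 1 library per diet the difference was not tested. Without the cell with the highest Gzmb count in each class (94 of the 232 control UMIs in Foxp3-positive and 16 of the 31 SG-free UMIs in Foxp3-negative cells) the ratios were 0.474 (0.367 to 0.613) and 1.26 (0.581 to 2.73).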

How the results depend on the processing

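The CD4 share of TRB barcodes depended on the rule: in the control and SG-free library it was 20.7% and 12.3% by Cd4 alone, 11.2% and 10.7% with at least 2 UMIs of Cd4 or Foxp3, 16.2% and 11.0% thinned to 1000 UMIs, 9.92% and 7.0% thinned to 500 UMIs, and 38.3% and 25.6% when Foxp3 cells needed no TRB chain, which adds 45 and 23 barcodes without TRB to both the CD4 cells and the barcodes counted. By Cd4 alone the Foxp3-positive share was 18.0% and 36.7%. It was higher in the control library for the CD4 share, and in the SG-free library for the Foxp3-positive share, under each of these that gave both. Counts of genes past the fold of 2, all cells kept, were: by diet in Foxp3-positive cells 160, or 291 with a pseudocount of 10 CPM, 53 with at least 50 UMIs and 69 without carriers; by diet in Foxp3-negative cells 312, or 538, 127 and 84, 184 with cells weighted equally, and without carriers 99 with equal weights and 143 with a pseudocount of 10 CPM; between Foxp3 classes 151 in the control, or 358, 72 and 271 with equal weights, and 175 in the SG-free library, or 281 and 59. The core list's diet median in Foxp3-positive cells was 0.44 with all cells, 0.21 with equal weights, and reversed to -0.0895 without carriers and -0.0945 with a pseudocount of 10 CPM as well; the interferon-gamma response list went from 0.46 to -0.0171 and -0.0203. The cause of these shifts was not tested. No paired analysis was possible because the series has 1 library per diet and the labels give no replicate numbers. Limits: the sums behind the diet comparisons hold 22 and 25 Foxp3-positive and 36 and 18 Foxp3-negative cells, so genes under 20 UMIs were not compared and a Cd4 or Foxp3 transcript can be missed in a shallow cell.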

Other observations

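Among barcodes without a TRB chain, 45 control and 23 SG-free barcodes held Foxp3 with no Cd8a, Cd8b1 or Krt20 UMI, of which 4 and 2 also held a Cd3 UMI. In the gene order of RefSeq, Il27ra and Rfx1 are the nearest measured genes on each side of Rln3. Il27ra had 13 control and 14 SG-free UMIs in Foxp3-positive cells, 11 and 9 in Foxp3-negative and 25 and 83 in CD8 cells. Rfx1 had 3 and 1 UMIs in Foxp3-positive cells. The confinement of Rln3 UMIs to Foxp3-positive cells was not seen for either neighbour. In the control library 1 Foxp3-negative cell held 23.1% of its UMIs in erythroid genes, and in the SG-free library 1 Foxp3-negative cell held 1.55% in dendritic cell genes.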
